A study of Homo sapiens with 6 samples.

Results

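The 44 genes described here encode proteins that repair DNA or signal its damage. They are 11 genes of homologous recombination, 7 of end resection and DNA unwinding, 11 of the Fanconi anaemia pathway, 3 of mismatch repair, 6 of checkpoint signalling and 6 of end joining and the PARP enzymes. They were chosen by name, as members of these pathways, with earlier results of these data known. The list was matched to the deposited counts by NCBI Gene number. All 44 were among the 29806 genes listed, and all 44 were among the 14462 with enough reads to be tested. LNCaP cells are an androgen-responsive line from human prostate cancer, and PACT is the double-stranded RNA binding protein encoded by *PRKRA*. Polyadenylated RNA was sequenced from 3 dishes of LNCaP parental (wild type) cells and 3 dishes of LNCaP cells with PACT knocked out by CRISPR-Cas9 (PACT KO), 48 h after plating at about 80% confluency in RPMI-1640 with fetal bovine serum. The labels name no other treatment. The knockout cells were sorted after transfection and grown into single colonies, and the study used a single clone, so an effect of PACT and a trait of the picked cells cannot be told apart. The p-values measure the spread between dishes.

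A DNA double-strand break can be rejoined directly by end joining, or it can be cut back (resected) to single-stranded DNA and repaired by homologous recombination from the sister chromatid, which exists only once DNA has been replicated. The Fanconi anaemia pathway unlocks crosslinked DNA strands during replication, and mismatch repair corrects copying errors behind the replication fork. The kinases ATM and ATR report breaks and stalled forks to the checkpoint kinases, which hold the cell cycle. Many recombination and Fanconi genes are transcribed mainly in dividing cells, from late G1 to S phase, whereas the Ku proteins and DNA-PK of end joining are made throughout the cycle. In prostate cancer, defects of recombination genes are the basis for treatment with PARP inhibitors, and LNCaP is known as a mismatch repair-deficient line.

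The libraries held 19930060 to 24940838 reads counted on genes. Reads on *PRKRA* numbered 882, 809 and 866 in the parental dishes against 291, 331 and 243 in the knockout dishes, so the mRNA of the targeted gene was lower but still present (log2 fold change -1.57, standard error 0.07, FDR = 8.83e-21, edgeR). All 10 markers of prostate luminal cells were detected, and of 11 markers of basal, stromal, endothelial and immune cells, 6 had at most 3 reads in each library, 4 of these with no read in any. The summed level of these 11 was 60.2 to 61.7 CPM (counts scaled to a common library size with edgeR's TMM factors) in LNCaP parental cells and 60.7 to 67.7 CPM in PACT KO cells. Of the 4 tested, *VWF* was lower (log2 fold change -0.61) and *COL1A1* higher (0.52), and *ACTA2* and *CD68* were not called. PACT KO replicate 1 stood somewhat apart. The variance ratio of its read counts against the other PACT KO replicates was 3.63 and 2.96, against 2.02 for the remaining pair and 1.55 to 1.93 among LNCaP parental replicates, where sampling noise alone gives about 1. Mitochondrial genes took 2.86% of its reads, at most 2.51% in the other PACT KO replicates and 1.97% to 2.01% in LNCaP parental cells.

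Most of the 44 DNA repair genes were lower in PACT KO cells, by small amounts. Of the 44 genes, 31 were lower and 1 was higher at an FDR under 0.01, whereas 18.8% of all genes tested were lower and 15.3% higher by the same rule. The median log2 fold change of the 44 was -0.21, against 4.38e-04 over all genes tested. In 34 of the 44 the PACT KO dishes were all below the parental dishes, and in 2 they were all above, against 27.2% and 25.1% of all genes tested. Of the 31, 6 fell by at least 1.5-fold and the others by less. Without PACT KO replicate 1, 28 genes were lower and 1 was higher. Among 110 related repair genes tested, described below, 36 were lower and 4 higher with all libraries.

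**Figure D1:**
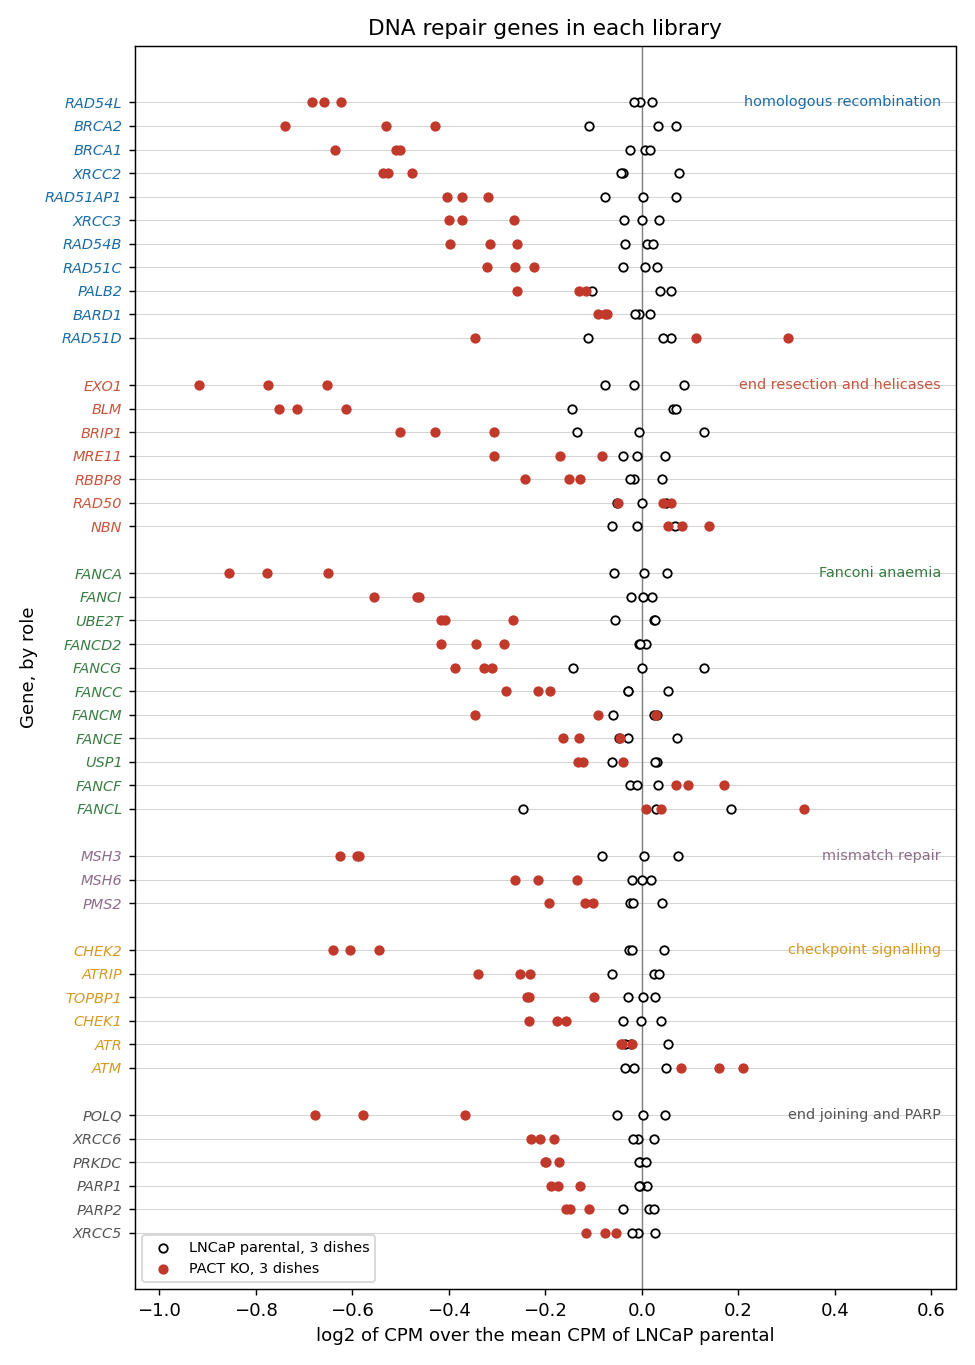
Level of each of the 44 DNA repair genes in each of the 6 libraries, as log2 of its CPM over the mean CPM of LNCaP parental cells (x axis), with genes ordered by role and fold change (y axis). Open points are the 3 LNCaP parental dishes and red points the 3 PACT KO dishes; the PACT KO points lie wholly to the left in 34 genes and wholly to the right in 2, *ATM* and *FANCF*.

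Genes of the cell cycle moved in the same direction. On the Seurat package's list for S phase, 35 of the 39 genes that are not among the 44 were lower and 0 were higher in edgeR's test, with a median log2 fold change of -0.46. Their summed level was 2400 to 2462 CPM in LNCaP parental cells and 1770 to 1799 CPM in PACT KO cells. On the list for G2 and M phase, 51 of 54 were lower, with a median of -0.52 and a summed level of 4994 to 5048 CPM against 3742 to 3847 CPM. All 39 and all 54 had a fitted log2 fold change below 0. Of the 44 repair genes, 11 fell further than the S phase median. The part of these cell cycle genes in the change of the repair genes was not tested. In RNA from whole dishes, fewer cells in a phase and less RNA per cell cannot be told apart. By flow cytometry, which is no part of the counts used here, the study reported more PACT KO cells in G0/G1 and hindered passage into S phase.

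**Figure D2:**
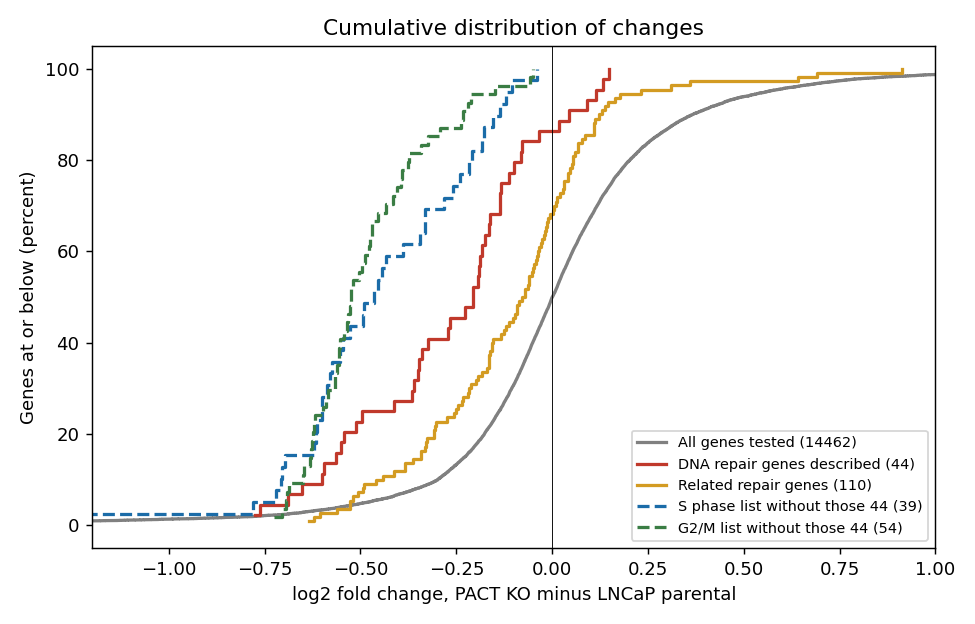
Percent of genes (y axis) at or below each log2 fold change of PACT KO over LNCaP parental cells (x axis), for all 14462 genes tested, the 44 repair genes, 110 related repair genes, and the S phase and G2/M lists without any of the 44. The curve of the 44 genes (median -0.21) crosses 50% between all genes and the S phase list (median -0.46); genes beyond the ends of the x axis are not drawn.

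The 6 genes with a fall of at least 1.5-fold at an FDR under 0.01, the rule by which the study calls a differentially expressed gene (DEG), came from 5 of the 6 roles. They were *EXO1*, *FANCA*, *BLM*, *RAD54L*, *MSH3* and *CHEK2*, and they compare with 2.65% of all genes tested. None of the 44 was an upregulated DEG in edgeR, against 3.07% of all genes, and none was under any other tool or setting. At an unadjusted p under 0.05 in edgeR, 3 of the 44 were higher and 0 of them by 1.5-fold. When edgeR's glmTreat tested for a change beyond 1.5-fold itself, it called 0 of the 6 at an FDR under 0.01, and 4 of the 44 had an unadjusted p under 0.05. *MSH3* and *CHEK2* lay closest to the threshold. *MSH3* fell short of 1.5-fold without LNCaP parental replicate 1 (log2 fold change -0.56) and without PACT KO replicate 3 (-0.58), and *CHEK2* without LNCaP parental replicate 3 (-0.57) or PACT KO replicate 2 (-0.57). *BRCA2* passed it without LNCaP parental replicate 1 (-0.62) or PACT KO replicate 3 (-0.62), and *POLQ* without PACT KO replicate 3 (-0.62). With library totals alone or upper quartile factors, 4 DEGs were left, without *MSH3* and *CHEK2* (-0.57 or -0.58 each).

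Promoter sequence was compared for the genes that moved together. RefSeq promoters of GRCh38.p14 were matched for 39 of the 44 genes, but not for *RAD54B*, *NBN*, *FANCI*, *XRCC5* and *PRKDC*. In the 250 bases before the start, a CCAAT box, read as CCAAT on either strand and bound by the factor NF-Y, was found in 19 of the 39 genes (48.7%) and in 33.0% of all 27305 promoters. The box was present in 14 of the 28 genes called lower and in 5 of the other 11. An E2F element, the site of the factors that switch on S phase genes, was searched on both strands as TTTGGCGC, TTTCGCGC, TTTCCCGC or TTTGCCGC. It was found in 4 of the 39 genes (10.3%) and 2.79% of all promoters. A CHR element, TTTGAA on either strand, was found in 5 of the 39 (12.8%) and in 13.6% of all promoters. The 27305 promoters include those of genes not tested here, whereas all 39 genes were tested, so these shares compare unlike sets. The share among tested genes alone was not counted. These matches are letters in a short window and no measure of binding.

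The start is that of the RefSeq promoter. In the 80 bases before it, a CCAAT box lay in *XRCC3*, *RAD51AP1*, *MRE11*, *BRIP1*, *UBE2T*, *MSH6*, *PMS2*, *ATRIP* and *XRCC6*. These were called lower but fell by less than 1.5-fold. The box also lay there in *PALB2*, *FANCM* and *FANCF*, which were not called. The share of all promoters with a box in this shorter window was not counted. Of the 6 DEGs, 4 had a CCAAT box in the last 80 bases before the start. Those bases are shown 5′ to 3′ on the gene's strand, with the box in capitals (ATTGG is its reverse complement).
*BLM*, log2 fold change -0.69, chr15:90717266-90717345, plus strand: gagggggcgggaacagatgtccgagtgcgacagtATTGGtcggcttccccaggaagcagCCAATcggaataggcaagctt
*CHEK2*, log2 fold change -0.60, chr22:28741821-28741900, minus strand: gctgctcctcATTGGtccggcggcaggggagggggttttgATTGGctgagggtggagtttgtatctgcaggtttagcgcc
*RAD54L*, log2 fold change -0.65, chr1:46247608-46247687, plus strand: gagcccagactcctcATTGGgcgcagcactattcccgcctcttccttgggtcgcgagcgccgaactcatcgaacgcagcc
*FANCA*, log2 fold change -0.76, chr16:89816648-89816727, minus strand: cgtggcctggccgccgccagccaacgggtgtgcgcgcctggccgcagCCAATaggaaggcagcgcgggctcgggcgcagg

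The 4 genes with an E2F match span much of the range of change, and windows of 60 bases around a match are shown to set the large falls beside the small. The matched letters are in capitals. In *MSH3* a match on each strand overlaps the other, and *FANCC* has a further match nearer its start.
*MSH3*, log2 fold change -0.60, chr5:80654519-80654578, plus strand: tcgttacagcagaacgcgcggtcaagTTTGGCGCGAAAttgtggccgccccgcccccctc
*FANCA*, log2 fold change -0.76, chr16:89816786-89816845, minus strand: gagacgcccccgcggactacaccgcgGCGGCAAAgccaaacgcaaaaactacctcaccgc
*FANCC*, log2 fold change -0.23, chr9:95317848-95317907, minus strand: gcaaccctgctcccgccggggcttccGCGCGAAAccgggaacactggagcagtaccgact
*PMS2*, log2 fold change -0.14, chr7:6009116-6009175, minus strand: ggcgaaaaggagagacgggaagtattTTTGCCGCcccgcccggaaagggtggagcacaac

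Among the genes of homologous recombination, 8 of 11 were lower and 0 higher, with a median log2 fold change of -0.35. *RAD54L*, NCBI Gene number 8438 (chr1:46247688-46278473, plus strand), encodes a motor protein that helps the broken strand invade its partner. It had 674, 637 and 748 reads in the parental dishes against 478, 459 and 375 in the knockout dishes. Its level was 29.8 ± 0.380 CPM (SD, n = 3) and 18.9 ± 0.402 CPM (SD, n = 3), so that it fell by 36.4% (log2 fold change -0.65, standard error 0.06, FDR = 3.44e-11, edgeR). The groups were far apart, as the highest PACT KO replicate lay well below the lowest LNCaP parental replicate.

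*BRCA1* encodes a ubiquitin ligase subunit that steers breaks towards recombination, and *BRCA2* loads the strand-exchange recombinase onto DNA. *BRCA1*, number 672 (chr17:43044295-43170327, minus strand), had 1206, 1173 and 1352 reads in the parental dishes against 858, 923 and 771 in the knockout dishes. It fell by 31.7% (log2 fold change -0.55, standard error 0.04, FDR = 2.27e-13, edgeR), just short of 1.5-fold. *BRCA2*, number 675 (chr13:32315077-32400268, plus strand), had 374, 393 and 462 reads against 304, 259 and 267. It fell by 32.4% (log2 fold change -0.56, standard error 0.09, FDR = 1.19e-06, edgeR). In both genes the groups were separate.

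Their partners moved less. *BARD1*, which pairs with BRCA1, was 238 ± 2.68 CPM in LNCaP parental cells and 226 ± 1.51 CPM in PACT KO cells (SD, n = 3 each). Its replicates did not overlap, but its log2 fold change was -0.08 (95% interval -0.13 to -0.03) with an FDR of 0.0148 in edgeR, which missed the threshold. *PALB2*, the bridge from BRCA1 to BRCA2, had a log2 fold change of -0.16 (95% interval -0.33 to 4.52e-03). Per kilobase of exon, *BARD1* was among the most abundant of the 44 genes in LNCaP parental cells, at 39.3 CPM per kb, against 5.88 for *BRCA1*, 3.19 for *PALB2* and 1.45 for *BRCA2*.

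The paralogs of the recombinase, which help it assemble, moved unequally. *XRCC2* had 446, 460 and 485 reads in the parental dishes against 358, 338 and 283 in the knockout dishes, and it fell by 29.9% (log2 fold change -0.51, standard error 0.08, FDR = 6.13e-07, edgeR). *XRCC3* had a log2 fold change of -0.35 and *RAD51C* one of -0.27, both past the threshold. *RAD51D* did not pass it, with 207, 175 and 223 reads against 170, 262 and 191 and an interval of -0.19 to 0.27. Its groups overlapped, with PACT KO replicates both below and above all LNCaP parental replicates. Of the remaining genes, *RAD51AP1*, whose product promotes strand invasion, had a log2 fold change of -0.36 and the motor protein gene *RAD54B* one of -0.32. The call of *RAD54B* was lost without LNCaP parental replicate 3 (-0.31) or PACT KO replicate 2 (-0.29), and with DESeq2 (-0.32).

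**Figure D3:**
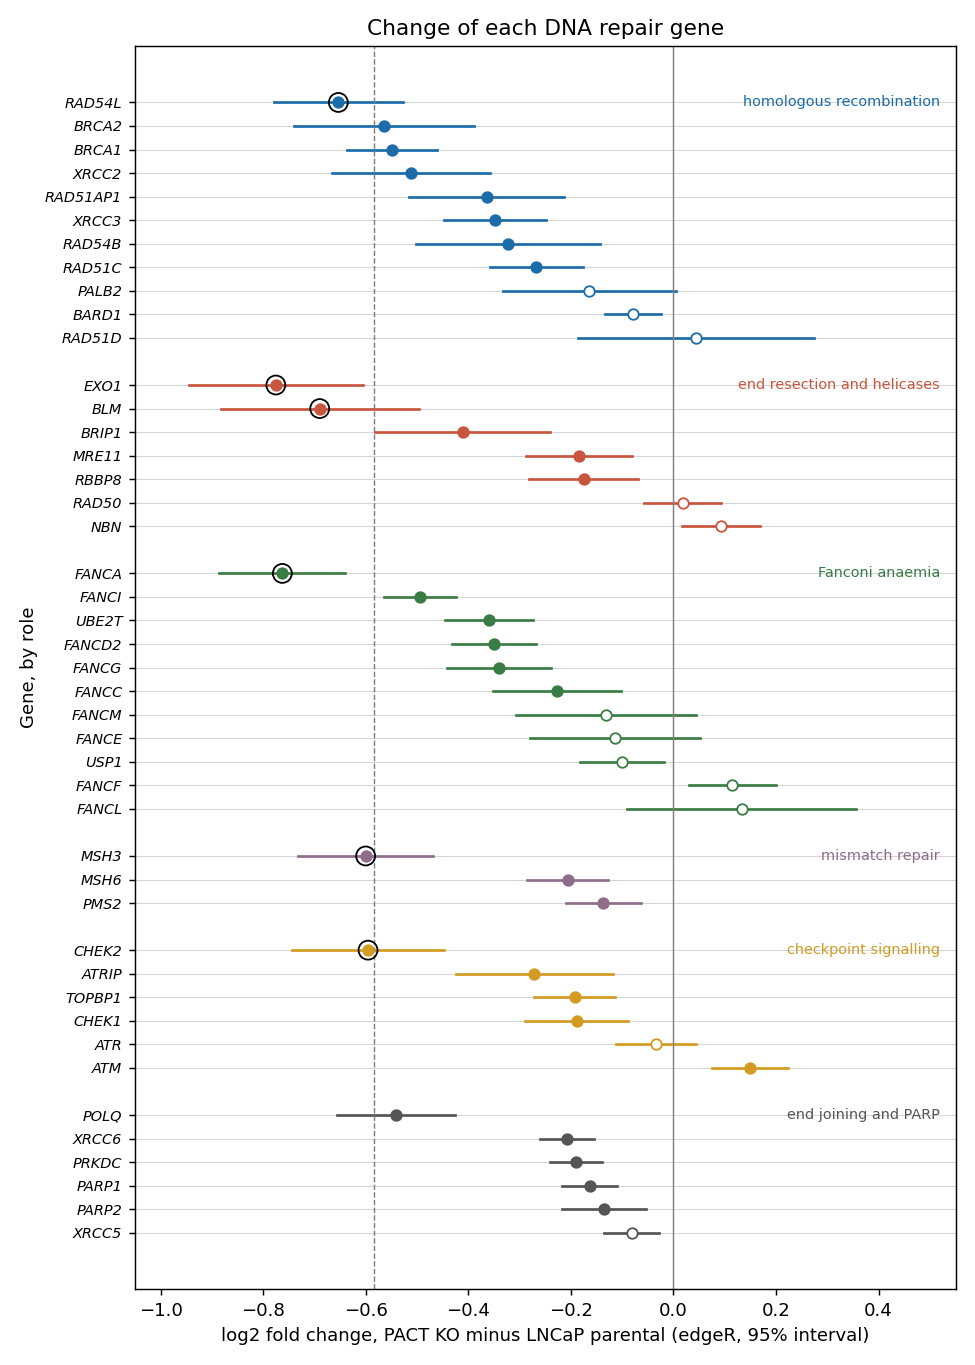
Log2 fold change of PACT KO over LNCaP parental cells for each of the 44 genes (x axis) with its 95% interval from edgeR (horizontal line), ordered by role (y axis). Filled points passed an FDR of 0.01, open points did not, ringed points are the 6 DEGs, and the dashed line marks a 1.5-fold fall; *ATM* (0.15) is the filled point to the right of 0.

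For end resection and DNA unwinding, 5 of 7 genes were lower and 0 higher, with a median of -0.18. The enzymes of long resection and unwinding fell most. *EXO1*, number 9156 (chr1:241847986-241889939, plus strand), is an exonuclease that serves both resection and mismatch repair. It had 443, 453 and 463 reads in the parental dishes against 310, 254 and 233 in the knockout dishes. Its level was 19.7 ± 1.14 CPM against 11.5 ± 1.05 CPM (SD, n = 3 each), a fall of 1.71-fold (log2 fold change -0.78, standard error 0.08, FDR = 8.14e-10, edgeR).

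*BLM*, number 641 (chr15:90717346-90816166, plus strand), encodes the helicase that is lost in Bloom syndrome. It had 248, 273 and 314 reads against 195, 179 and 145, and fell by 38.0% (log2 fold change -0.69, standard error 0.10, FDR = 1.57e-07, edgeR). *BRIP1*, a helicase that binds BRCA1, had 365, 380 and 478 reads against 308, 347 and 265, and fell by 24.8% (log2 fold change -0.41, standard error 0.08, FDR = 1.12e-04, edgeR). The replicates of *EXO1*, *BLM* and *BRIP1* did not overlap between the groups after scaling.

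The MRN complex, which senses broken ends and starts resection, moved little. Its nuclease *MRE11* had a log2 fold change of -0.18 (FDR = 2.96e-03, edgeR). Its ATPase *RAD50* was at 79.1 ± 2.78 CPM in parental and 80.2 ± 3.27 CPM in PACT KO cells (SD, n = 3 each), with an interval of the log2 fold change from -0.06 to 0.09. The remaining subunit, *NBN*, had 1631, 1609 and 1949 reads against 2040, 1931 and 1573, a log2 fold change of 0.09 that missed the threshold (FDR = 0.0422, edgeR). *NBN* passed it without LNCaP parental replicate 3 (0.13) and with library totals alone (0.12). *RBBP8*, which encodes the resection factor CtIP, had a log2 fold change of -0.17 (FDR = 6.23e-03, edgeR). The call of *MRE11* was lost without LNCaP parental replicate 1 (-0.19) or 3 (-0.16) or PACT KO replicate 2 (-0.12), and with DESeq2 (-0.18) or library totals alone (-0.15). That of *RBBP8* was lost without LNCaP parental replicate 1 (-0.18), 2 (-0.16) or 3 (-0.18) or PACT KO replicate 1 (-0.14) or 2 (-0.19), and with DESeq2 (-0.17), library totals alone (-0.15) or upper quartile factors (-0.15).

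In the Fanconi anaemia pathway, 6 of 11 genes were lower and 0 higher, with a median of -0.23. The core complex recognizes the crosslink and its ligase FANCL, with the enzyme UBE2T, attaches ubiquitin to the FANCD2 and FANCI clamp. The subunits of the core complex did not move together. *FANCA*, number 2175 (chr16:89737549-89816647, minus strand), had 767, 763 and 903 reads in the parental dishes against 507, 473 and 453 in the knockout dishes. Its level was 33.8, 35.3 and 36.5 CPM against 20.5, 19.4 and 22.4 CPM, and it fell by 41.1% (log2 fold change -0.76, standard error 0.06, FDR = 3.03e-13, edgeR).

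*FANCG* (log2 fold change -0.34) and *FANCC* (-0.23) fell less. The other core genes did not pass the threshold. *FANCE* had an interval of -0.28 to 0.05, *FANCM*, which anchors the complex to DNA, one of -0.31 to 0.04, and *FANCL* one of -0.09 to 0.36. *FANCF* was 44.8 ± 0.933 CPM against 48.5 ± 1.76 CPM, with separate groups and a log2 fold change of 0.11 (FDR = 0.0237, edgeR). *FANCF* passed the threshold when libraries were scaled by their totals alone (0.14) or by their upper quartiles (0.14). The call of *FANCC* was lost without LNCaP parental replicate 1 (-0.20) or PACT KO replicate 3 (-0.20).

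Both clamp genes fell. *FANCI* had 2370, 2190 and 2554 reads in the parental dishes against 1730, 1813 and 1512 in the knockout dishes, and it fell 1.41-fold with the lowest FDR of the 44 (log2 fold change -0.49, standard error 0.03, FDR = 9.77e-15, edgeR). *FANCD2* fell by 21.5% (log2 fold change -0.35, standard error 0.04). *UBE2T* fell by 22.1% (log2 fold change -0.36, standard error 0.04). *USP1*, which removes the ubiquitin again, had a log2 fold change of -0.10 (95% interval -0.18 to -0.02) and missed the threshold (FDR = 0.0407, edgeR).

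All 3 mismatch repair genes were lower. *MSH3*, number 4437 (chr5:80654652-80876815, plus strand), recognizes larger loops of unpaired bases. It had 684, 584 and 711 reads in the parental dishes against 471, 462 and 375 in the knockout dishes. Its level was 28.6 ± 1.56 CPM against 18.9 ± 0.280 CPM (SD, n = 3 each), and it fell 1.52-fold (log2 fold change -0.60, standard error 0.06, FDR = 7.60e-10, edgeR). *MSH6*, which recognizes single mismatches, had 1453, 1422 and 1608 reads against 1336, 1359 and 1195, and fell by 13.3% (log2 fold change -0.21, standard error 0.04, FDR = 3.72e-05, edgeR). *PMS2*, an endonuclease subunit, had a log2 fold change of -0.14 (FDR = 1.85e-03, edgeR). Its call was lost without LNCaP parental replicate 2 (-0.12) or PACT KO replicate 2 (-0.11), and with DESeq2 (-0.13) or library totals alone (-0.11). *PMS2* has 15 listed copies in RefSeq, 7 of them in the deposited counts with 5417 reads in all against 10863 for *PMS2*, so its reads may be divided among copies and its value is uncertain.

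In checkpoint signalling, 4 of 6 genes were lower and 1 was higher. *CHEK2*, number 11200 (chr22:28687742-28741834, minus strand), encodes the kinase that acts downstream of ATM. It had 496, 474 and 569 reads in the parental dishes against 377, 347 and 296 in the knockout dishes. Its level was 22.2 ± 0.631 CPM against 14.7 ± 0.501 CPM (SD, n = 3 each), and it fell by 33.8% (log2 fold change -0.60, standard error 0.07, FDR = 1.22e-08, edgeR).

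*ATM* itself was the 1 gene of the 44 called higher. It had 1766, 1704 and 2045 reads in the parental dishes against 2202, 2050 and 1865 in the knockout dishes. These overlap as raw reads but not after scaling, at 79.7 ± 2.52 CPM and 88.6 ± 4.01 CPM (log2 fold change 0.15, standard error 0.04, FDR = 9.93e-04, edgeR). Without LNCaP parental replicate 1 it was not past the threshold (0.13).

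On the ATR side, *ATR* had a log2 fold change of -0.03 (95% interval -0.11 to 0.04) and its groups overlapped. *TOPBP1*, which activates ATR, had 1633, 1522 and 1812 reads against 1509, 1481 and 1356, and fell by 12.5% (log2 fold change -0.19, standard error 0.04, FDR = 9.19e-05, edgeR). *ATRIP*, the partner of ATR, had a log2 fold change of -0.27 and its effector kinase *CHEK1* one of -0.19. The call of *ATRIP* was lost without LNCaP parental replicate 2 (-0.26) or 3 (-0.25) or PACT KO replicate 3 (-0.24). That of *CHEK1* was lost without LNCaP parental replicate 1 (-0.19) or 2 (-0.17) or PACT KO replicate 1 (-0.16), and with DESeq2 (-0.19).

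For end joining and the PARP enzymes, 5 of 6 genes were lower and 0 higher, and none fell by 1.5-fold. *POLQ* stood apart from the rest. It encodes polymerase theta, which joins resected ends at short matching sequences. *POLQ* had 920, 910 and 1076 reads in the parental dishes against 649, 685 and 659 in the knockout dishes, and fell by 31.3% (log2 fold change -0.54, standard error 0.06, FDR = 3.44e-10, edgeR).

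The genes of the Ku proteins and DNA-PK were abundant, and their fitted falls were small. *XRCC6*, which encodes Ku70, had 9954, 9259 and 10538 reads against 9189, 9235 and 7426, and fell by 13.4% (log2 fold change -0.21, standard error 0.03, FDR = 2.33e-08, edgeR). Its partner *XRCC5*, which encodes Ku80, had a log2 fold change of -0.08 (95% interval -0.13 to -0.03) and missed the threshold (FDR = 0.0111, edgeR), although its groups were separate. *XRCC5* passed the threshold without PACT KO replicate 2 (-0.10) and under edgeR's likelihood ratio test and limma-voom (-0.08 in both). The wider list, described below, holds further end joining genes with fewer reads. Of these, *XRCC4* (log2 fold change 0.16), *LIG4* (0.11), *DCLRE1C* (0.18), *NHEJ1* (-0.16) and *PAXX* (-0.16) were not called.

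*PRKDC*, the catalytic subunit of DNA-PK, fell by 12.4% (log2 fold change -0.19, standard error 0.03), and *PARP1*, which marks breaks with poly(ADP-ribose), fell by 10.7% (log2 fold change -0.16, standard error 0.03). *PARP2* had a log2 fold change of -0.14 (FDR = 5.66e-03, edgeR), and its call was lost without LNCaP parental replicate 1 (-0.13) or 2 (-0.13) or PACT KO replicate 1 (-0.15), 2 (-0.13) or 3 (-0.12). It was also lost with DESeq2 (-0.13), a filter of 1 CPM (-0.13), library totals alone (-0.11), upper quartile factors (-0.11) and the replicate block (-0.14). Per kilobase of exon in LNCaP parental cells, *XRCC6* was at 131 CPM per kb, *XRCC5* at 84.1 and *PARP1* at 51.9, the highest of the 44. The lowest was *RAD51D*, at 0.773 CPM per kb. The length is the union of all annotated exons of a gene, 11.3 kb for *RAD51D*, and can exceed that of its main mRNA. Before division by length, *FANCL* was lower, at 7.52 CPM against 8.74 CPM for *RAD51D*. No gene was absent in either group, as the fewest reads of any of the 44 in a library were the 145 on *BLM* in PACT KO replicate 3.

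Ratios of reads between genes whose products work together do not depend on how libraries are scaled. They were formed within each library for 13 pairs, chosen after the values above had been seen. The ratio *BRCA1* to *BARD1* was 0.224, 0.230 and 0.226 in the parental dishes against 0.155, 0.167 and 0.169 in the knockout dishes. The ratio *CHEK2* to *ATM* was 0.281, 0.278 and 0.278 against 0.171, 0.169 and 0.159, a change of -0.75 on the log2 scale. *MRE11* to *RAD50* was 0.509 ± 0.0146 against 0.442 ± 0.0174 (SD, n = 3 each), and *XRCC6* to *XRCC5* was 0.937 ± 1.51e-03 against 0.859 ± 0.0171.

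In 11 of the 13 pairs the ratios of the groups did not overlap. The exceptions were *NBN* to *RAD50*, at 0.948 ± 0.0118 against 0.998 ± 0.0425, and *XRCC3* to *RAD51C*, at 0.923 ± 3.37e-03 against 0.877 ± 0.0708 (SD, n = 3 each). The ratios are a description of the same reads and were not tested. As the pairs were chosen with the values known, the count of 11 is no measure of pairs in general. No such share was computed for other pairs. Among all single genes tested, the PACT KO dishes lay wholly below the parental dishes in 27.2% and wholly above in 25.1%.

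Several repair genes start close to a gene on the opposite strand. By the outermost RefSeq start of each gene, 21 of the 44 had such a head-to-head neighbour within 1000 bases. Enough reads to be tested were found for 16 neighbours. Of these 5 were lower, 2 higher and 9 not called, beside 18.8% lower and 15.3% higher of all genes tested, and their median log2 fold change was -6.65e-03. Among the lower neighbours were *MCM4* beside *PRKDC*, *AIMP2* beside *PMS2*, *DESI1* beside *XRCC6* and *CCDC51* beside *ATRIP*. *MCM4*, a subunit of the replicative helicase, fell further than its neighbour *PRKDC*, at -0.57 against -0.19.

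Other neighbours did not follow the repair gene. *NBR1*, an autophagy receptor gene, rose (log2 fold change 0.13, standard error 0.03, FDR = 1.76e-04, edgeR), while *BRCA1* fell. The *NBR1* start lies 82 bases from the outermost RefSeq start of *BRCA1*. Whether *BRCA1* is transcribed from that start in these cells was not tested. *NBR2*, which overlaps *BRCA1* on the opposite strand, was not called (0.07). *NPAT*, beside *ATM*, was not called (0.01, standard error 0.05), nor was *HSCB*, beside *CHEK2* (0.05, standard error 0.10). *RPPH1*, the RNA of RNase P, beside *PARP2*, was called higher on a single library. *RPPH1* had 9, 7 and 97 reads in the parental dishes against 2452, 12 and 10 in the knockout dishes, and its fitted log2 fold change of 4.39 became -1.69 without PACT KO replicate 1. *PARP2* itself was at 47.2 CPM in that library and at 45.9 and 45.7 CPM in the other PACT KO replicates.

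Of the 44 genes, 13 overlap another tested gene, 12 of them one on the opposite strand. Whether the counting used strand is not given in the sources used here, so reads in such overlaps cannot be assigned with certainty. Among the genes with larger falls these include *FANCA*, overlapped by *ZNF276* (log2 fold change -0.25), *FANCI*, overlapped by *POLG* (-0.20), *RAD54L*, overlapped by *LRRC41* (-0.02), and *BRCA1*, overlapped by *NBR2* (0.07) and by *LOC101929767* on its own strand (0.40).

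A wider list of 115 genes of the same pathways was examined in the same fit, of which 110 were tested. Of these 36 were lower and 4 higher, with a median log2 fold change of -0.07, beside the 18.8% and 15.3% of all genes tested. The differences between the lists were not tested. The 4 higher genes, named after their values were seen, were *RADX*, *ABRAXAS1*, *TP53BP1* and *FAAP100*. *RADX*, whose product binds single-stranded DNA at replication forks, was the only upregulated DEG of the list, with 34, 21 and 28 reads against 56, 56 and 45 (log2 fold change 0.91, standard error 0.20, FDR = 2.30e-04, edgeR). In recombination and the break response 16 of 43 were lower and 3 higher, in mismatch repair with its replication partners 9 of 17 were lower, and in checkpoint signalling 8 of 15. Of the rest, 2 of 16 further Fanconi genes were lower and 1 higher, and 1 of 19 further end joining genes was lower.

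The genes with the lowest FDR in the break response were *H2AX*, the histone variant phosphorylated at breaks (log2 fold change -0.56, standard error 0.03), the helicase gene *RECQL4* (-0.64, standard error 0.05) and *MDC1*, which binds phosphorylated H2AX (-0.38, standard error 0.03). In the mismatch list they were *PCNA*, the sliding clamp (-0.49, standard error 0.03), *POLD1*, the catalytic subunit of polymerase delta (-0.51, standard error 0.05), and *HMGB1* (-0.26, standard error 0.03). For the checkpoint they were *CDC25B*, a phosphatase that activates cyclin-dependent kinases (-0.46, standard error 0.04), and the fork proteins *TIMELESS* (-0.31, standard error 0.03) and *CLSPN* (-0.53, standard error 0.06). Among further Fanconi genes they were *CENPX* (-0.41, standard error 0.04), *DCLRE1B* (-0.33, standard error 0.07) and *FAAP100*, which rose (0.14, standard error 0.04). In end joining, *RIF1*, which holds back resection, fell (-0.16, standard error 0.05), and *PAXX* (-0.16, FDR = 0.0203) and *APTX* (-0.10, FDR = 0.0359) missed the threshold in edgeR's test.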

How the data were processed

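RNA-seq was analysed in 6 libraries, 3 of LNCaP parental and 3 of PACT KO cells. The authors deposited raw read counts per NCBI Gene number, not normalized; the submitters' processing notes name bcl2fastq 2.20.0.422, STAR 2.5.3a, StringTie 1.3.3, featureCounts 1.5.3 and hg38, and the annotation and strand setting are not given in the sources used here. A row without a gene number (0.0688% to 0.0708% of counts) was left out. Genes were named from RefSeq (GRCh38.p14), and strands and exon lengths (the union of all exons of a gene) came from GENCODE 29. Counts that overlap genes or copies may be split.

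Counts were filtered with filterByExpr, scaled by TMM and tested with glmQLFit and glmQLFTest in edgeR 4.0.16 (R 4.3.3), 2-sided, with Benjamini-Hochberg adjustment over all 14462 genes (FDR), after a check on simulated data. Calls used an FDR under 0.01, and DEGs also 1.5-fold. The standard error is the absolute log2 fold change divided by the square root of F. Libraries of 19930060 to 24940838 reads put 3 counts at 0.120 to 0.151 CPM. Alternatives were other scalings, filters and thresholds, DESeq2 1.42.0, limma-voom (limma 3.58.1), the likelihood ratio test, glmTreat, the replicate number as a block, and each library left out. Counts per library are given for genes called with an absolute log2 fold change of at least 0.4 and the 2 lowest FDRs of each role, and the 3 lowest FDRs of each wider list are named; other genes with counts were chosen after their values were seen. The genes and lists were chosen with earlier results of these data known. The values of 1 neighbouring gene are not reported here.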

Additional observations from a re-analysis of the deposited data

How the results depend on the processing

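Over 15 alternative fits and an FDR of 0.05 as threshold, 25 to 34 of the 44 genes were lower, and the median log2 fold change was -0.22 to -0.18. Of 31 genes called lower, 23 were so in every fit. The number called higher was 1 in the report, 3 with library totals alone, 2 with upper quartile factors and 3 at an FDR of 0.05. The 6 downregulated DEGs became 0 under glmTreat against 1.5-fold, which tests beyond that size. Related genes called higher were 4, and 2 with DESeq2. With each library left out, 0 to 2 of the 44 were higher, 26 to 28 lower and 5 to 7 downregulated DEGs. Genes that were not called and changed sign were *RAD50* (0.02 with all libraries; -8.03e-03 without LNCaP parental replicate 1, -2.74e-04 without PACT KO replicate 1, at most 0.0525) and *RAD51D* (0.04 with all libraries; -8.07e-03 without LNCaP parental replicate 2, -0.11 without PACT KO replicate 2, at most 0.22). No pairing by replicate number was evident, as deviations of same-numbered libraries correlated at -0.09, 2.85e-03 and -0.09. Of the 6 libraries, 0 correlated best with their own number in the other group. With 3 libraries per group, these correlations cannot exclude that same-numbered dishes were handled together. With the replicate number as a block, 30 genes were lower and 1 higher, with a median of -0.21, and 6 were downregulated DEGs. Depth limits genes with few reads, such as *FANCL*, whose 95% interval spans -0.09 to 0.36.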
